A study of Mus musculus with 8 samples.

Results

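The comparison described here set liver RNA of wild-type (WT) mice given acetaminophen (APAP) against liver RNA of WT mice given phosphate-buffered saline (1xPBS) only. Libraries were assigned by their treatment label, which gave 4 of the 8 libraries of the study, 2 in each group. The labels number the control libraries 1 and 2 and the APAP libraries 3 and 4, and these names are kept (control 1, control 2, APAP 3 and APAP 4). APAP mice had PBS and then APAP at 400 mg/kg, and livers were snap-frozen 24 h later. The remaining 4 libraries came from WT mice given SLIT2 (2 μg per mouse into the peritoneum over 3 days), with or without APAP. They served here to estimate the spread between libraries of a group, and their levels are given only where stated. The sources used here give no strain, sex, age or fasting. Nothing in the labels says whether both libraries of a group represent different mice, so the p-values reflect only sample-to-sample spread, part or all of which may be technical.

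The liver clears most of a dose of APAP by joining it to glucuronic acid or sulfate. The rest is oxidised, mainly by Cyp2e1 in hepatocytes around the central vein, to a reactive quinone imine that glutathione traps. After an overdose glutathione runs out, the metabolite binds mitochondrial proteins, the stress kinase JNK is activated and hepatocytes around the central vein die, while surviving hepatocytes make acute phase proteins and enter the cell cycle to repair the lobule.

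Levels are given as CPM, counts per 1000000 counts of a library after TMM scaling. Total counts, in units of 1000000, were 95.4 and 100.5 in control and 85.4 and 99.1 in APAP, against 60.8 to 83.7 in the other 4 libraries. The 13 mitochondrially encoded genes took 13.4% to 17.3% of the counts in the 4 libraries compared, but 60.2% and 69.0% in the SLIT2 libraries. The liver label held: the 10 hepatocyte markers were all present, Alb (albumin) lay between 30270 and 66460 CPM, and the markers summed to 57180 and 76330 CPM in control and 112900 and 90050 CPM in APAP. Between APAP 3 and APAP 4, 2757 of 16876 genes differed by at least 2-fold on log2(CPM + 0.5), against 332 between the control libraries. For that reason every gene below is given in each library before its fold change. In bulk tissue, fewer cells of a type and less RNA per cell cannot be told apart.

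Of 16876 genes tested with edgeR's quasi-likelihood test (Benjamini-Hochberg adjusted p under 0.05), 133 were called (0.788% of those tested): 56 rose with APAP (0.332%) and 77 fell (0.456%). In all 133 the control and APAP libraries did not overlap, which a small p all but requires, so this adds no support. APAP 3 lay above both controls in 44.9% and below both in 43.5% of all genes tested, and APAP 4 in 41.8% and 40.5%. By a rule of size alone, 201 genes lay at least 2-fold above the higher control in both APAP libraries (1.19%) and 175 lay at least 2-fold below the lower control in both (1.04%), and 54 of the genes that rose and 71 of those that fell were among them. More genes met this rule in APAP 3: 1060 genes met the 2-fold rule upward in APAP 3 only (6.28%) and 99 in APAP 4 only (0.587%), and 619 downward in APAP 3 only (3.67%) and 64 in APAP 4 only (0.379%). Among the 56 genes that rose, 47 were higher in APAP 3 than in APAP 4. Among the 77 that fell, 31 were lower in APAP 3 than in APAP 4, as were 80 of the 175 genes that lay 2-fold below control in both. The calls rested on the spread shared by all 8 libraries: fitted on the 4 compared libraries alone edgeR called 0 genes (2654 at an unadjusted p under 0.05), without either SLIT2 library 0, and without either SLIT2+APAP library 4, among them Btg2, Fos and Cfd. The count was 20 without control 1 (1 higher, 19 lower), 137 without control 2 (9 higher, 128 lower, 56 of them shared), 553 without APAP 3 and 5181 without APAP 4, and DESeq2 called 1836 genes, 131 of them shared. For any single gene, exact permutation of these 4 libraries gives no two-sided p smaller than 0.333. Jun, Junb, Jund, Zfp36, Herpud1, Lgr5, Ddc, Lrrc59, Eif6, Eif2ak3, Wee1, Acta1 and Ckm overlap an annotated gene on the opposite strand, and the strand setting of the counting is not given in the sources used here, so reads of such pairs cannot be told apart. Levels are also uncertain for families of close copies (Saa, Serpina3, Ugt2b, Sult2a, Hsd3b and alpha class glutathione transferases).

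**Figure D1:**
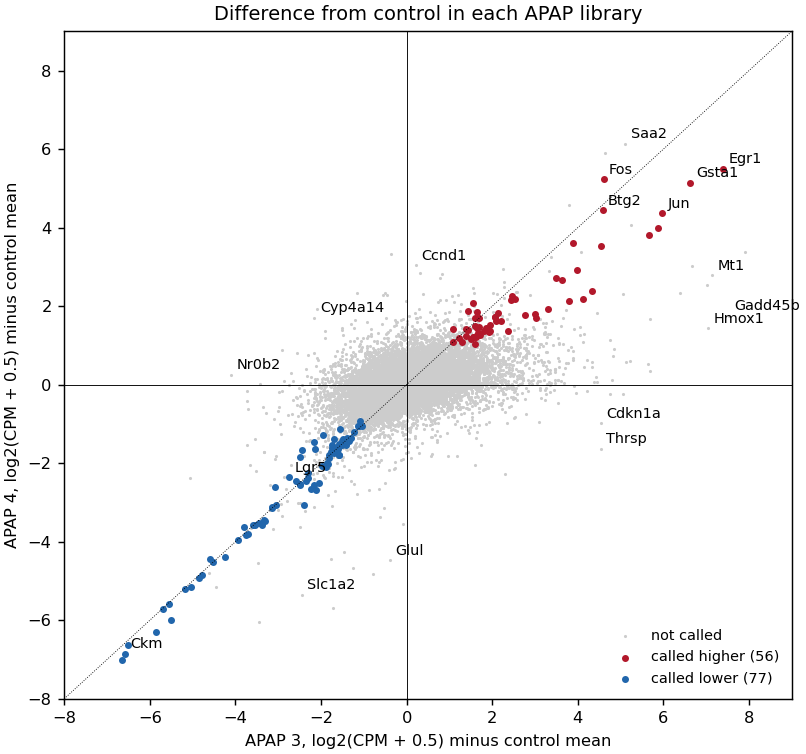
Each point is 1 of the 16876 genes tested, placed by its difference from the control mean on log2(CPM + 0.5) in APAP 3 (horizontal axis) and APAP 4 (vertical axis). Red points are the 56 genes that rose and blue points the 77 that fell by edgeR, and the dotted line marks equal differences; the grey cloud is wider along the APAP 3 axis, and Mt1, Hmox1, Gadd45b, Thrsp and Cdkn1a lie far to the right of the line while Glul and Slc1a2 lie below it.

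Immediate early genes, which code for transcription factors and mRNA decay factors that cells switch on within minutes of a stimulus, held more genes that rose than any other of the 46 lists examined. Of 23 tested members of this list 7 rose and 0 fell (Fos, Jun, Junb, Jund, Egr1, Ier2 and Zfp36), where 0.332% of all genes tested rose. The lists were chosen with earlier results of these data known, so this rank and count are a description and not a test. Fos, a subunit of the AP-1 transcription factor, was at 1.10 and 1.24 CPM in control and 40.0 and 62.0 CPM in APAP 3 and APAP 4 (log2 fold change 5.44 ± 0.60 SE, edgeR adjusted p = 0.02723). It was the only called member of the list that was higher in APAP 4. Jun, the partner of Fos in AP-1, was at 7.31 and 8.43 CPM in control and 524 and 172 CPM in APAP (5.46 ± 0.73, edgeR adjusted p = 0.03274). Egr1, a zinc finger factor (chromosome 18, 34859823 to 34864984 on GRCm38), was at 3.79 and 2.81 CPM in control and 635 and 170 CPM in APAP (6.93 ± 0.83, edgeR adjusted p = 0.03274). Both genes stood more than 2-fold higher in APAP 3 than in APAP 4, and both APAP libraries lay far above both controls.

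The other Jun proteins and the remaining called members rose from higher control levels. Junb was at 12.1 and 26.2 CPM in control and 226 and 116 CPM in APAP (3.16 ± 0.48, edgeR adjusted p = 0.04201). Jund was at 34.4 and 45.0 CPM in control and 183 and 122 CPM in APAP (1.94 ± 0.31, edgeR adjusted p = 0.04327). Ier2, a short-lived nuclear protein, was at 23.1 and 20.2 CPM in control and 246 and 145 CPM in APAP (3.17 ± 0.32, edgeR adjusted p = 0.0235). Zfp36, which binds AU-rich elements and speeds the decay of cytokine mRNAs, was at 45.4 and 74.1 CPM in control and 396 and 200 CPM in APAP (2.32 ± 0.39, edgeR adjusted p = 0.04825). In these 4 genes APAP 3 was the higher APAP library, and the groups did not overlap.

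Several members with large differences did not pass, and in them the APAP libraries lay far apart. Atf3, a stress-induced repressor, was at 0.608 and 0.610 CPM in control, 265 CPM in APAP 3 and 11 CPM in APAP 4 (edgeR adjusted p = 0.06279). Maff, a small Maf protein, was at 1.70 and 1.92 CPM in control, 119 CPM in APAP 3 and 6.92 CPM in APAP 4 (edgeR adjusted p = 0.06926). Myc was at 1.44 and 0.683 CPM in control, 32.8 CPM in APAP 3 and 4.84 CPM in APAP 4 (edgeR adjusted p = 0.06522). In each of these the lower APAP library was still above both controls. Over the list, 14 of 23 members met the 2-fold rule upward in both APAP libraries and 7 more in APAP 3 only (1.19% and 6.28% of all genes tested). The median log2 difference from control was 3.48 in APAP 3 and 1.48 in APAP 4, with 0.00 in both over all genes tested.

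**Figure D2:**
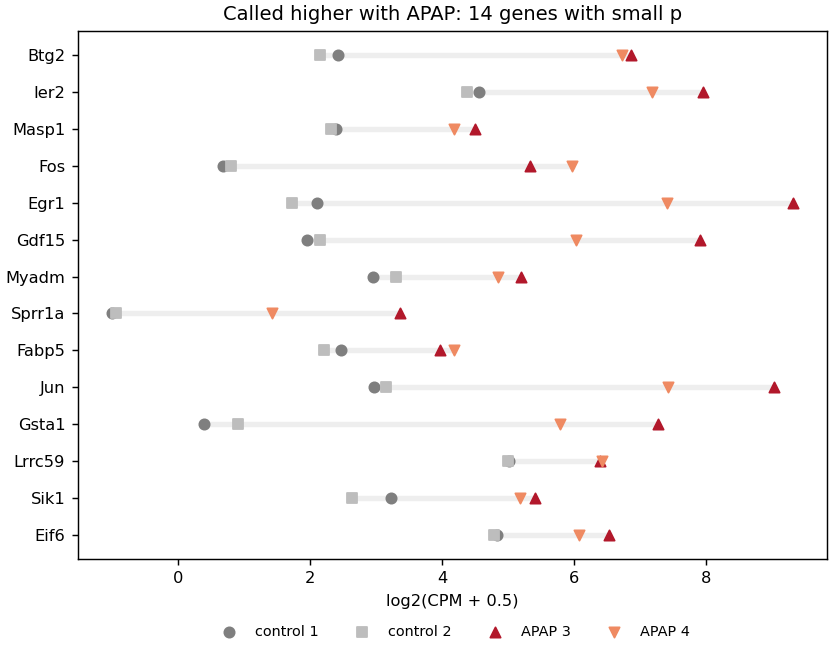
A set of 14 of the 15 genes that rose with the smallest p among those with at least 5 CPM in the APAP mean, 1 gene per row, with log2(CPM + 0.5) on the horizontal axis and 1 symbol per library. Grey symbols (control 1 and control 2) lie to the left of both APAP symbols in every row; Btg2, Lrrc59, Fabp5 and Sik1 have their APAP symbols close together, and Egr1, Gdf15, Jun and Sprr1a have APAP 3 well to the right of APAP 4.

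The smallest adjusted p among the genes that rose was that of Btg2, an antiproliferative co-factor of mRNA deadenylation and a target of p53. Btg2 (ENSMUSG00000020423, chromosome 1, 134075170 to 134079120, minus strand, GRCm38) was at 4.87 and 3.95 CPM in control and 116 and 105 CPM in APAP, which is 4.41 ± 0.652 against 110.8 ± 7.57 CPM (SD, n = 2 each). The log2 fold change of Btg2 was 4.65 ± 0.33 with an edgeR adjusted p of 0.006499, a value shared with the fat marker Cfd. The APAP libraries were close to each other, which was not so for Egr1 and Jun.

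Promoters of 3 stress genes are shown because each holds a known response element, and they were chosen after the values were seen. They are the 250 bases before the RefSeq start (build GRCm38.p6), 5′ to 3′ on the gene's strand, in lower case with the matched element in capitals: the cAMP response element TGACGTCA in Btg2 (chr1:134079156-134079405, minus strand), the CArG box, bound by serum response factor, in Zfp36 (chr7:28379229-28379478, minus strand), and the endoplasmic reticulum (ER) stress element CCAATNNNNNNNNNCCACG in the chaperone gene Hspa5 (chr2:34771840-34772089, plus strand).
Btg2: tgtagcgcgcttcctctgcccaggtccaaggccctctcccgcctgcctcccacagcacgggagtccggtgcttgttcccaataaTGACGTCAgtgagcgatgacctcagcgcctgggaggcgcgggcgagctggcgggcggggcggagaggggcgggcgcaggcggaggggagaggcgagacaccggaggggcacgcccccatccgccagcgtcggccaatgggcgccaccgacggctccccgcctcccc
Zfp36: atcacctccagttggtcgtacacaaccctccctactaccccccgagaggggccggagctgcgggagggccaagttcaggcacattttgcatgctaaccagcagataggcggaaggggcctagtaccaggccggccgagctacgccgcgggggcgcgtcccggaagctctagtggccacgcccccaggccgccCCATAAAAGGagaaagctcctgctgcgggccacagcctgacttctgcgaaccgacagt
Hspa5: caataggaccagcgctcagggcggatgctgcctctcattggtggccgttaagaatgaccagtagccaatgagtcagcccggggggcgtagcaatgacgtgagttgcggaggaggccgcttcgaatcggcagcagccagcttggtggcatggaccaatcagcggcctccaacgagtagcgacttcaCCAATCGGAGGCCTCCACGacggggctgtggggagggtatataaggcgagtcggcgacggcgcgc
Searched on both strands, the cAMP response element occurs in 1.55% of 32851 RefSeq promoter windows of the same length, the CArG box in 1.47% and the ER stress element in 0.113%. The elements begin at -166 in Btg2, -58 in Zfp36 and -65 in Hspa5 relative to the start, and none of these windows holds another of the 3 elements. The windows of Fos, Jun, Junb and Jund hold no exact TGACGTCA. Those of Herpud1, Dnajb9 and Sel1l hold no exact match to the ER stress element as spelled above. Other forms of these elements were not searched, so the windows may hold them. The Jund window ends at 70697738, upstream of the annotated gene start at 70698949. A match describes letters in a window and is not a measured binding site.

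Among 24 p53 and growth arrest targets, Btg2 and Gdf15 rose and 0 fell, where 0.332% of all genes tested rose and 0.456% fell. Gdf15, a secreted stress cytokine, was at 3.37 and 3.92 CPM in control and 241 and 64.8 CPM in APAP (5.39 ± 0.67, edgeR adjusted p = 0.03274). By the 2-fold rule 5 members were higher in both APAP libraries and 6 in APAP 3 only (1.19% and 6.28% of all genes tested). Cdkn1a, the cell cycle inhibitor p21, was at 45.0 and 6.44 CPM in control, 412 CPM in APAP 3 and 8.53 CPM in APAP 4, which lies between the controls. Gadd45b, a stress sensor, was at 1.84 and 1.18 CPM in control, 364 CPM in APAP 3 and 6.17 CPM in APAP 4 (edgeR adjusted p = 0.0708). Mdm2, the ubiquitin ligase that degrades p53, was at 19.3 and 14.8 CPM in control, 93.2 CPM in APAP 3 and 21.0 CPM in APAP 4. The list median was 0.90 in APAP 3 and 0.12 in APAP 4.

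Genes of the JNK cascade and the dual specificity phosphatases (Dusp) that switch these kinases off had list medians of 1.13 in APAP 3 and 0.31 in APAP 4. None of 27 passed the adjusted threshold, and 16 had an unadjusted p under 0.05 on the higher side and 0 on the lower side (14.5% and 10.1% of all genes tested). Dusp1 was at 31.3 and 28.9 CPM in control, 203 CPM in APAP 3 and 72.8 CPM in APAP 4. Dusp5 was at 0.298 and 0.315 CPM in control, 9.30 CPM in APAP 3 and 1.78 CPM in APAP 4. Dusp6 was closest between the APAP libraries, at 33.6 and 23.9 CPM in control, 101 CPM in APAP 3 and 68.8 CPM in APAP 4 (1.56 ± 0.34, edgeR adjusted p = 0.06671). The 3 phosphatases were above both controls in both APAP libraries and were highest in APAP 3.

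Enzymes that act on APAP itself had fold changes of both signs, and few passed. Cyp2e1, the main bioactivating cytochrome, was at 2862 and 3002 CPM in control and 4400 and 4138 CPM in APAP (0.54 ± 0.37, edgeR adjusted p = 0.3956). Of the 18 cytochromes and regulators of that list 0 passed. Among 24 glutathione genes only Gsta1 passed, where 0.788% of all genes tested did. Gsta1, an alpha class glutathione transferase (chromosome 9, 78230656 to 78242684), was at 0.810 and 1.38 CPM in control and 155 and 54.9 CPM in APAP (6.58 ± 0.88, edgeR adjusted p = 0.03274). Gclc, the catalytic subunit of the enzyme that starts glutathione synthesis, was at 114 and 109 CPM in control, 293 CPM in APAP 3 and 149 CPM in APAP 4 (edgeR adjusted p = 0.1182).

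NRF2, a transcription factor that responds to oxidants and electrophiles, drives a known set of antioxidant genes. Of 24 such targets 0 passed. On the higher side 8 had an unadjusted p under 0.05 and 6 met the 2-fold rule in APAP 3 only (14.5% and 6.28% of all genes tested). Hmox1, heme oxygenase, was at 3.05 and 4.58 CPM in control, 557 CPM in APAP 3 and 11 CPM in APAP 4 (edgeR adjusted p = 0.07794). Srxn1, sulfiredoxin, was at 24.9 and 30.8 CPM in control, 195 CPM in APAP 3 and 51.8 CPM in APAP 4. Txnrd1, thioredoxin reductase, was at 53.8 and 58.8 CPM in control, 285 CPM in APAP 3 and 81.1 CPM in APAP 4. In all 3 the order was control, then APAP 4, then APAP 3. The metallothioneins, small metal-binding proteins, had the same order: Mt1 was at 83.1 and 59.7 CPM in control, 9991 CPM in APAP 3 and 488 CPM in APAP 4, and Mt2 was at 44.4 and 32.6 CPM in control, 5020 CPM in APAP 3 and 225 CPM in APAP 4 (edgeR adjusted p = 0.06983 and 0.07278).

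Conjugation genes were mostly lower without passing. Of 19 glucuronidation and sulfation genes 0 passed, and 12 lay below both controls in APAP 3 and 12 in APAP 4 (43.5% and 40.5% of all genes tested did so), with list medians of -0.41 in APAP 3 and -0.33 in APAP 4. Ugt2b1, a UDP-glucuronosyltransferase, was at 560 and 447 CPM in control and 197 and 110 CPM in APAP (edgeR adjusted p = 0.06671). Outside the list, Sult2a8, a liver sulfotransferase of bile acids, fell from 1027 and 837 CPM in the controls to 286 and 301 CPM in APAP (fold change -1.67 ± 0.26 on the log2 scale, edgeR adjusted p = 0.04327). Slco1a1, an organic anion uptake transporter, fell from 326 and 266 CPM to 116 and 109 CPM (-1.40 ± 0.24, edgeR adjusted p = 0.04968). Abcc2, the canalicular pump that exports glutathione and glucuronide conjugates, had the opposite sign at 55.9 and 57.8 CPM in control and 197 and 130 CPM in APAP (1.52 ± 0.29, edgeR adjusted p = 0.05669) and did not pass.

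Protein folding stress in the endoplasmic reticulum is read out by chaperones and by the machinery that removes misfolded proteins, and here the APAP libraries differed in which genes were high. Of 27 ER chaperone and degradation genes 2 rose, where 0.332% of all genes tested rose. Herpud1, which recruits misfolded proteins to the degradation complex, was at 200 and 198 CPM in control and 772 and 513 CPM in APAP (1.69 ± 0.26, edgeR adjusted p = 0.04327). Sel1l, the scaffold of that complex, was at 8.15 and 8.65 CPM in control and 23.5 and 32.4 CPM in APAP (1.74 ± 0.25, edgeR adjusted p = 0.03912). Hspa5 (BiP), the main chaperone, was at 413 and 532 CPM in control and 1159 and 1023 CPM in APAP and did not pass (edgeR adjusted p = 0.06522). These 3 genes were high in both APAP libraries.

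Other genes of the ER list were high only in APAP 4. Hyou1 was at 58.3 and 100.5 CPM in control, 55.1 CPM in APAP 3 and 248 CPM in APAP 4. Pdia4, a disulfide isomerase, was at 91.0 and 121 CPM in control, 37.3 CPM in APAP 3 and 251 CPM in APAP 4. Syvn1, the ubiquitin ligase that Sel1l serves, was at 38.0 and 47.0 CPM in control, 44.0 CPM in APAP 3 and 144 CPM in APAP 4. Across the list 22 of 27 genes lay above both controls in APAP 4 (41.8% of all genes tested) and 8 in APAP 3 (44.9%). In APAP 3 13 of 27 lay below both controls, near the 43.5% of all genes tested, and the medians were -0.12 in APAP 3 and 0.62 in APAP 4. The branch of the stress response that runs through translation control had the reverse order. Eif2ak3 (PERK), the ER kinase that starts it, rose from 5.01 and 4.70 CPM in the controls to 15.9 and 11.9 CPM in APAP (1.52 ± 0.24, edgeR adjusted p = 0.04327). Of the 25 genes of the ATF4 list, which counts Eif2ak3 although it acts upstream of ATF4, none of the other 24 was called, and the list median was 1.39 in APAP 3 and 0.61 in APAP 4. Ddit3 (CHOP), a pro-death factor of this branch, was at 3.00 and 3.45 CPM in control, 19.9 CPM in APAP 3 and 8.33 CPM in APAP 4 (edgeR adjusted p = 0.06052).

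**Figure D3:**
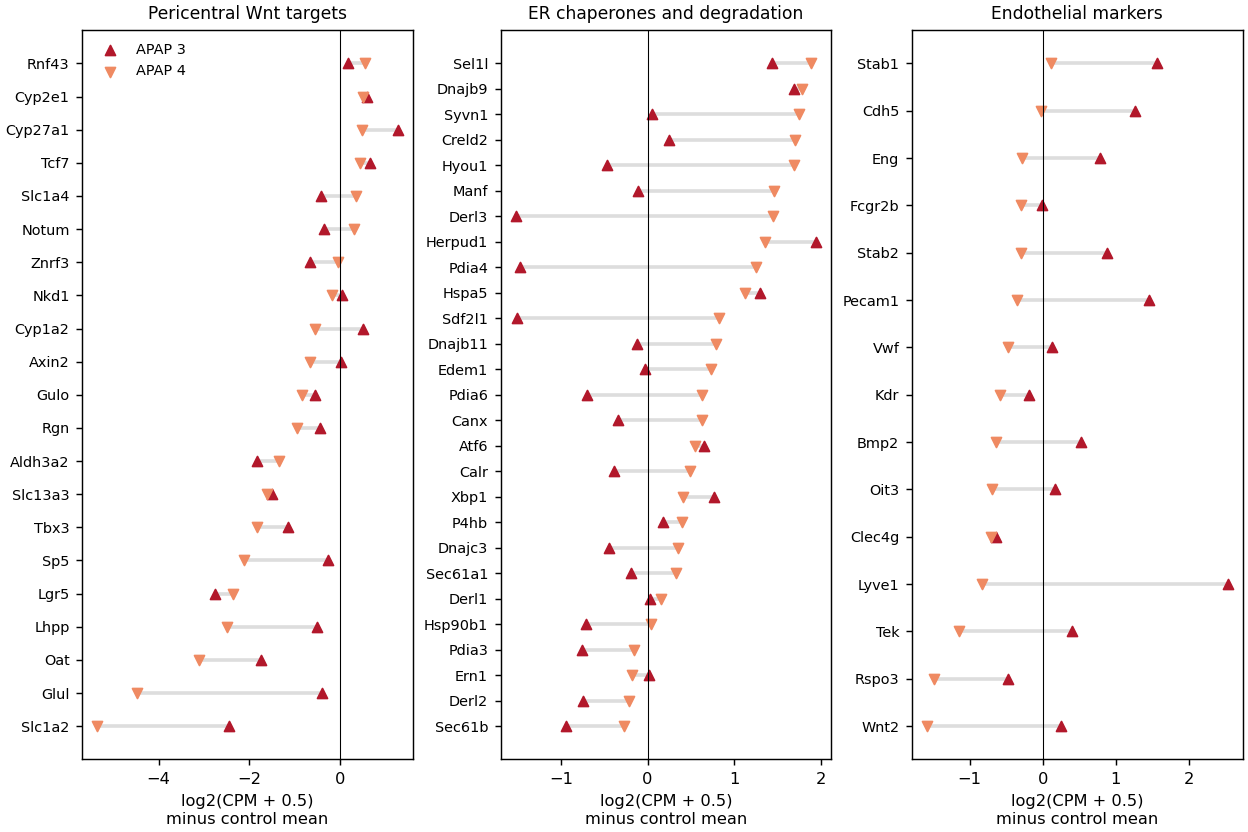
Difference from the control mean on log2(CPM + 0.5) in APAP 3 (dark triangles pointing up) and APAP 4 (light triangles pointing down) for the tested members of 3 lists, 1 gene per row. Pericentral Wnt targets (left) run further below 0 in APAP 4 for Glul, Slc1a2, Oat and Lhpp; ER genes (middle) lie mostly above 0 in APAP 4; endothelial markers (right) lie mostly above 0 in APAP 3 and below 0 in APAP 4.

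Acute phase proteins, which hepatocytes secrete in response to inflammation, were alike in both APAP libraries as a list, with medians of 1.15 in APAP 3 and 1.17 in APAP 4. Of 24 members 2 rose, and 10 met the 2-fold rule upward in both APAP libraries (0.332% and 1.19% of all genes tested). Itih3, which binds hyaluronan, rose from 563 and 470 CPM in the controls to 1553 and 1664 CPM in APAP (1.64 ± 0.25, edgeR adjusted p = 0.04122). Serpina3m, a serine protease inhibitor, rose from 205 and 204 CPM to 553 and 540 CPM (1.42 ± 0.23, edgeR adjusted p = 0.04386). Both genes showed little spread in either group. The serum amyloid Saa2 was at 45.2 and 53.9 CPM in control, 1718 CPM in APAP 3 and 3510 CPM in APAP 4 (5.72 ± 1.11, edgeR adjusted p = 0.05852), and Lcn2, which withholds iron from bacteria, at 14.5 and 27.5 CPM in control, 780 CPM in APAP 3 and 343 CPM in APAP 4 (4.74 ± 0.83, edgeR adjusted p = 0.05177). Neither passed. The feedback inhibitor of IL-6 signalling, Socs3, was at 7.35 and 7.24 CPM in control, 102 CPM in APAP 3 and 28.7 CPM in APAP 4 (edgeR adjusted p = 0.05796).

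Among 27 tested complement genes Masp1 rose and Cfd fell, where 0.332% of all genes tested rose and 0.456% fell. Cfd, also a fat marker, was low in the SLIT2 libraries without APAP as well. Its values are given with the fat markers below. Masp1, a protease of the lectin pathway (chromosome 16, 23449417 to 23520815), rose from 4.74 and 4.49 CPM to 22.0 and 17.7 CPM (2.1 ± 0.23, edgeR adjusted p = 0.02723). Masp1 overlaps annotated genes on the opposite strand, among them Rtp4. The fibrinogen chain Fga was at 1723 and 1241 CPM in control and 5893 and 5282 CPM in APAP and did not pass (edgeR adjusted p = 0.06267). In Masp1 and Fga the APAP libraries were close to each other.

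Genes under insulin and growth hormone control included 1 that rose. Igfbp1, a binding protein that hepatocytes release in fasting and stress, rose from 46.7 and 24.5 CPM in the controls to 541 and 260 CPM in APAP (3.49 ± 0.52, edgeR adjusted p = 0.03966). Hsd3b5, a male-biased steroid dehydrogenase under growth hormone, was at 190 and 144 CPM in control and 32.6 and 34.7 CPM in APAP and did not pass (edgeR adjusted p = 0.05177). The glucose transporter Slc2a2 was at 133 and 144 CPM in control and 50.1 and 64.6 CPM in APAP and did not pass either (edgeR adjusted p = 0.05574). Nudt7, a peroxisomal enzyme that splits coenzyme A, fell from 537 and 401 CPM to 117 and 110 CPM (-2.05 ± 0.26, edgeR adjusted p = 0.03274). Selenbp2, a selenium-binding liver protein, fell from 562 and 298 CPM to 87.0 and 64.7 CPM (-2.50 ± 0.40, edgeR adjusted p = 0.04327).

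Bile acid and lipid synthesis genes, none of which passed, separated the APAP libraries. Of 19 bile acid genes 14 lay below both controls in APAP 3 and 12 in APAP 4 (43.5% and 40.5% of all genes tested), with medians of -0.94 and -0.16. Nr0b2 (SHP), the repressor that bile acids induce through the receptor FXR, was at 46.4 and 69.9 CPM in control, 2.83 CPM in APAP 3 and 68.1 CPM in APAP 4. Idi1, an isomerase of sterol synthesis, was at 131 and 152 CPM in control, 12.6 CPM in APAP 3 and 142 CPM in APAP 4. Thrsp, which promotes fatty acid synthesis, was at 50.4 and 122 CPM in control, 1838 CPM in APAP 3 and 25.1 CPM in APAP 4. For each of the 3 genes only APAP 3 stood far outside the control range.

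Hepatocytes around the central vein are kept in that state by Wnt and R-spondin signals from the neighbouring endothelium. Of 21 tested pericentral Wnt targets 1 fell and 0 rose, where 0.456% of all genes tested fell. By the 2-fold rule 6 were lower in both APAP libraries (Lgr5, Slc13a3, Aldh3a2, Tbx3, Oat and Slc1a2), where 1.04% of all genes were. Lgr5, the R-spondin receptor (chromosome 10, 115450311 to 115587780), fell from 7.60 and 6.99 CPM in the controls to 0.661 and 1.02 CPM in APAP (-3.11 ± 0.35, edgeR adjusted p = 0.02833). Oat, ornithine aminotransferase, was at 910 and 823 CPM in control, 257 CPM in APAP 3 and 101 CPM in APAP 4 (edgeR adjusted p = 0.07794). Slc1a2, a glutamate transporter, was at 109 and 105 CPM in control, 19.1 CPM in APAP 3 and 2.13 CPM in APAP 4 (edgeR adjusted p = 0.08761). These targets were below both controls in both APAP libraries, and the last 2 were lowest in APAP 4.

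Other pericentral genes lay slightly below both controls in APAP 3 and far below them in APAP 4. Glul, the glutamine synthetase of the innermost hepatocytes, was at 807 and 680 CPM in control, 564 CPM in APAP 3 and 33.0 CPM in APAP 4. Lhpp, a histidine phosphatase, was at 72.4 and 80.0 CPM in control, 53.8 CPM in APAP 3 and 13.1 CPM in APAP 4. Sp5, a direct Wnt target, was at 1.89 and 1.95 CPM in control, 1.51 CPM in APAP 3 and 0.0583 CPM in APAP 4. The 2 signals themselves were also lowest in APAP 4: Wnt2 was at 1.26 and 1.62 CPM in control, 1.80 CPM in APAP 3 and 0.146 CPM in APAP 4, and Rspo3 at 8.13 and 6.78 CPM in control, 5.20 CPM in APAP 3 and 2.32 CPM in APAP 4. Cyp2e1, also pericentral, was above both controls in both APAP libraries. The 15 endothelial markers, which include Wnt2 and Rspo3, summed to 115 and 124 CPM in control, 202 CPM in APAP 3 and 82.8 CPM in APAP 4; 13 of 15 lay below both controls in APAP 4 (40.5% of all genes tested) and 11 of 15 above both in APAP 3 (44.9%), and their part in these results was not tested. None of the 15 passed.

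Cell cycle genes were examined for entry into DNA synthesis and for mitosis. Ccne1, cyclin E, rose from 0.465 and 0.662 CPM in the controls to 4.03 and 2.75 CPM in APAP (2.58 ± 0.38, edgeR adjusted p = 0.03912). It was the only called gene of 32 in the replication and mitosis list, where 0.788% of all genes tested were called. Wee1, a kinase that delays mitosis and belongs to no list, rose from 0.107 and 0.189 CPM to 1.45 and 0.835 CPM (2.91 ± 0.49, edgeR adjusted p = 0.04968). Subunits of the replicative helicase were higher without passing, as in Mcm3, at 1.20 and 1.05 CPM in control and 3.93 and 4.67 CPM in APAP, and Mcm6, at 1.20 and 1.22 CPM in control, 2.73 CPM in APAP 3 and 7.17 CPM in APAP 4 (edgeR adjusted p = 0.053 and 0.06864). Ccnd1, cyclin D1, was at 8.56 and 8.99 CPM in control, 10.3 CPM in APAP 3 and 75.7 CPM in APAP 4 (edgeR adjusted p = 0.122). Only APAP 4 stood apart from the controls for this gene. The mitotic survivin gene Birc5 was at 3.56 CPM in both controls and 2.1 and 1.58 CPM in APAP (edgeR adjusted p = 0.08186).

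**Figure D4:**
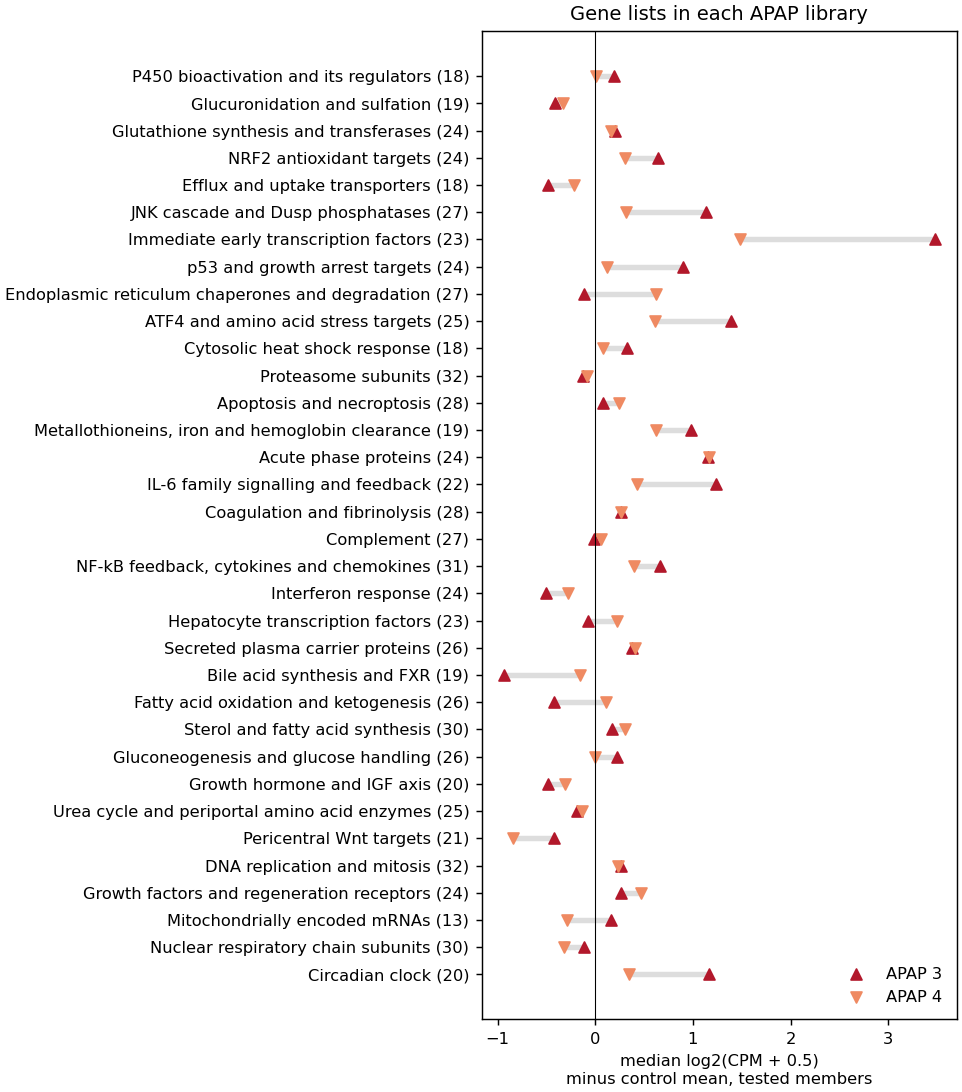
Median difference from the control mean on log2(CPM + 0.5) over the tested members of each gene list (number in brackets), for APAP 3 and APAP 4; the horizontal axis is in log2 units and the vertical line marks no difference. Immediate early factors lie furthest right (3.48 and 1.48), acute phase proteins coincide (1.15 and 1.17), and the ER list (-0.12 and 0.62) has opposite signs in the 2 libraries.

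Cytokine, heat shock and clock genes had no called member, in lists of 31, 18 and 20 tested genes. Icam1, an adhesion molecule for leukocytes, was at 6.41 and 6.83 CPM in control and 17.3 and 16.0 CPM in APAP (1.33 ± 0.24, edgeR adjusted p = 0.05187). Cxcl1, a neutrophil attractant, was at 3.94 and 14.0 CPM in control, 265 CPM in APAP 3 and 39.3 CPM in APAP 4. Ccl2, a monocyte attractant, was at 0.322 and 0.126 CPM in control, 7.97 CPM in APAP 3 and 1.00 CPM in APAP 4. Both chemokines were above both controls in both APAP libraries and highest in APAP 3. The inducible chaperone Hspa1a was at 0.548 and 0.883 CPM in control and 11.5 and 8.39 CPM in APAP (edgeR adjusted p = 0.05911). Per1, a clock repressor, was at 12.5 and 8.65 CPM in control, 179 CPM in APAP 3 and 25.9 CPM in APAP 4, and its partner in feedback Bhlhe40 at 21.9 and 32.3 CPM in control, 145 CPM in APAP 3 and 78.8 CPM in APAP 4. The time of day of collection is not given in the sources used here. Ifit1, induced by interferon, lay below both controls in both APAP libraries, at 16.3 and 17.3 CPM in control and 7.16 and 6.81 CPM in APAP (edgeR adjusted p = 0.05177) and did not pass. Of 24 interferon genes 16 lay below both controls in APAP 3 and 15 in APAP 4 (43.5% and 40.5% of all genes tested). Others of these genes were high in APAP 3: Oasl1 was at 5.26 and 5.38 CPM in control, 116 CPM in APAP 3 and 8.18 CPM in APAP 4, and Mx2 at 4.16 and 4.10 CPM in control, 14.9 CPM in APAP 3 and 5.92 CPM in APAP 4. Cxcl10, an interferon-induced chemokine, was at 1.97 and 2.24 CPM in control, 90.1 CPM in APAP 3 and 3.39 CPM in APAP 4. The interferon list medians were -0.50 in APAP 3 and -0.28 in APAP 4.

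Transcription factors that define the hepatocyte had differences of both signs. Of 23 tested 0 passed, and 5 on the higher and 4 on the lower side had an unadjusted p under 0.05 (14.5% and 10.1% of all genes tested). In APAP 3, 9 lay above both controls and 11 below, near the 44.9% and 43.5% of all genes tested. By the 2-fold rule 4 were lower in APAP 3 only and 1 in both libraries (3.67% and 1.04% of all genes tested). The list had medians of -0.07 in APAP 3 and 0.22 in APAP 4. Hnf4a was at 266 and 275 CPM in control and 473 and 371 CPM in APAP (edgeR adjusted p = 0.1999). Nr1h4 (FXR) was at 86.7 and 94.7 CPM in control, 41.0 CPM in APAP 3 and 67.4 CPM in APAP 4 (edgeR adjusted p = 0.1477). Among 32 proteasome subunits, 25 urea cycle and periportal enzymes, 30 nuclear subunits of the respiratory chain and 13 mitochondrially encoded mRNAs 0 passed, and no list median was beyond 0.32 on either side in either APAP library.

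Markers of blood and liver cell types were read for all libraries. The 13 neutrophil markers summed to 3.71 and 4.88 CPM in control, 24.6 CPM in APAP 3 and 9.55 CPM in APAP 4. Of the 10 tested 0 passed and 7 had an unadjusted p under 0.05 on the higher side (14.5% of all genes tested). In APAP 3, 8 of the 10 lay above both controls, and in APAP 4, 9 did (44.9% and 41.8% of all genes tested). Mpo and Elane, which code for granule proteins, were at or under 0.204 CPM in the 4 libraries. Ly6g had 0 counts in both controls, where 0 allows up to 3 counts, and 1 count in each APAP library. Prtn3, another granule protease that is not in the list, was at 0.87 and 0.442 CPM in control, 0.387 CPM in APAP 3 and 10.95 CPM in APAP 4 (edgeR adjusted p = 0.1589). S100a9, a calcium-binding alarm protein of neutrophils, was at 0.691 and 0.747 CPM in control, 8.98 CPM in APAP 3 and 2.89 CPM in APAP 4 (edgeR adjusted p = 0.06681). Among 15 monocyte and recruited macrophage markers Cd68, a lysosomal protein of phagocytes, rose from 2.2 and 2.91 CPM to 23.8 and 10.2 CPM (2.73 ± 0.43, edgeR adjusted p = 0.04327), and the other 14 did not pass. The 15 markers summed to 713 and 641 CPM in control, 771 CPM in APAP 3 and 1382 CPM in APAP 4. A sum mostly reflects the most abundant members, and the list medians were only 0.18 in APAP 3 and 0.31 in APAP 4. The 12 Kupffer cell markers summed to 138 and 180 CPM in control and 227 and 165 CPM in APAP, with 0 called.

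The most uneven set was skeletal muscle. Of the 77 genes that fell, 36 had control 1 at least 3-fold above control 2, as did 680 of all 16876 genes tested. Of these 36, 35 were under 1 CPM in both APAP libraries. All 13 tested skeletal muscle markers were among the genes that fell, where 0.456% of all genes tested fell. Acta1, muscle actin, was at 212 and 25.7 CPM in control and 0.237 and 0.0777 CPM in APAP, and Ckm, muscle creatine kinase, at 180 and 18.7 CPM in control and 0.112 and 0.00971 CPM in APAP. The muscle list summed to 1183 CPM in control 1, 132 CPM in control 2, 1.87 CPM in APAP 3 and 0.797 CPM in APAP 4. It summed to 2.2 and 1.6 CPM in the SLIT2 libraries, which had no APAP, and 1.2 and 2.7 CPM in SLIT2+APAP. Among the 8 libraries only the 2 controls were high. Of the fat markers Cfd (adipsin) fell from 2.77 and 1.44 CPM to 0.0125 and 0.0291 CPM (-6.50 ± 0.61, edgeR adjusted p = 0.006499). Cfd was also low in the SLIT2 libraries without APAP, at 0.044 and 0.036 CPM, and in SLIT2+APAP, at 0.038 and 0.041 CPM. The 8 fat markers summed to 19.8 and 9.93 CPM in control, 58.4 CPM in APAP 3 and 7.59 CPM in APAP 4. Plin4, a lipid droplet protein, made up most of the APAP 3 sum, at 4.55 and 2.40 CPM in control, 45.9 CPM in APAP 3 and 3.61 CPM in APAP 4. The adipokine genes Adipoq, at 0.560 and 0.326 CPM in control, 0.0499 CPM in APAP 3 and 0 counts in APAP 4, and Retn, at 0.274 and 0.273 CPM in control and 0.0873 and 0.00971 CPM in APAP, were lower without passing. The part of muscle or fat RNA in the controls was not tested, and without control 1 edgeR called 20 genes in all.

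**Figure D5:**
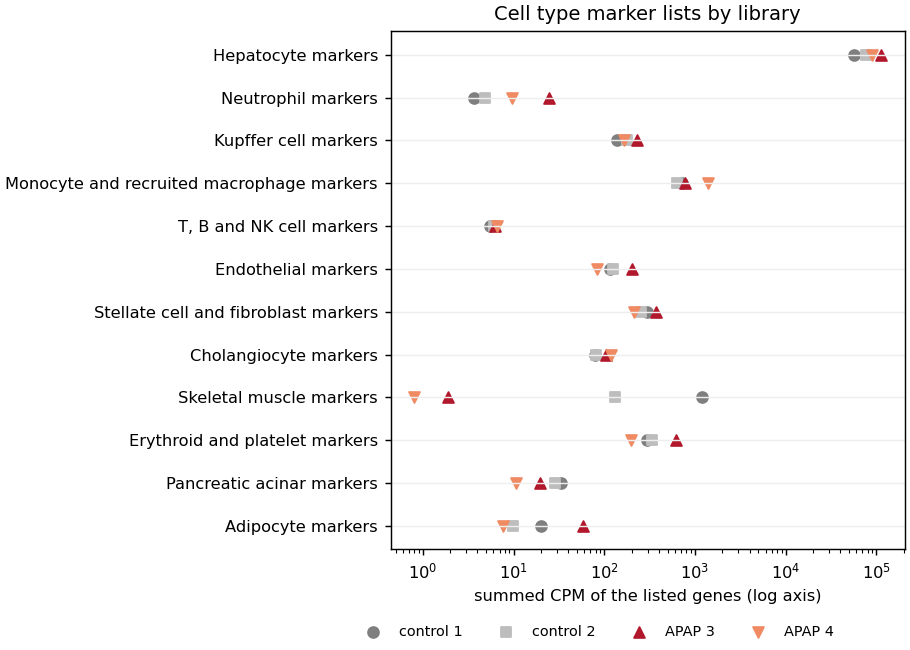
Summed CPM of 12 cell type marker lists in the 4 libraries, on a log axis, 1 row per list and 1 symbol per library. Hepatocyte markers lie near the top of the scale in every library, and skeletal muscle markers span 0.797 CPM (APAP 4) to 1183 CPM (control 1).

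The other 41 genes that fell had control 1 less than 3-fold above control 2, and 6 of them (Lgr5, Nudt7, Sult2a8, Selenbp2, Slco1a1 and Cfd) are described above. Ddc, the decarboxylase that makes dopamine and serotonin, fell from 33.2 and 27.4 CPM to 4.93 and 8.01 CPM (-2.23 ± 0.28, edgeR adjusted p = 0.03274). Kat6b, a histone acetyltransferase, fell from 5.45 and 6.19 CPM to 0.249 and 0.534 CPM (-3.86 ± 0.36, edgeR adjusted p = 0.0235). Among the genes that rose, Sik1, a salt-inducible kinase, went from 8.84 and 5.73 CPM to 41.8 and 35.8 CPM (2.41 ± 0.34, edgeR adjusted p = 0.03572). Lrrc59, a ribosome-binding ER protein, had nearly equal APAP libraries, with 31.9 and 31.6 CPM in control and 84.0 and 85.2 CPM in APAP (1.41 ± 0.20, edgeR adjusted p = 0.03514). Eif6, which keeps ribosomal subunits apart, rose from 28.0 and 27.1 CPM to 91.8 and 67.0 CPM (1.53 ± 0.21, edgeR adjusted p = 0.03572). Fabp5, a fatty acid carrier, rose from 5.02 and 4.13 CPM to 15.2 and 17.7 CPM (1.85 ± 0.24, edgeR adjusted p = 0.03274). Sprr1a, an epithelial stress protein, had 0 and 2 counts in the controls against 9.75 and 2.19 CPM in APAP, a ratio of 492 with a 95% counting interval of 136 to 4070.

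The largest differences between the APAP libraries were found in genes of varied function. Beyond Thrsp, Gadd45b, Hmox1 and Cdkn1a, the genes furthest above in APAP 3 included Cidec, a lipid droplet protein, at 1.81 and 1.96 CPM in control, 123 CPM in APAP 3 and 2.54 CPM in APAP 4. Arid5a, which stabilises cytokine mRNAs, was at 1.27 and 0.578 CPM in control, 68.5 CPM in APAP 3 and 1.48 CPM in APAP 4. Furthest above in APAP 4, after Nr0b2, was Asap3, a GTPase-activating protein, at 4.09 and 6.92 CPM in control, 0.873 CPM in APAP 3 and 21.9 CPM in APAP 4. Cyp4a14, a fatty acid hydroxylase driven by PPAR alpha, was at 267 and 738 CPM in control, 99.4 CPM in APAP 3 and 1454 CPM in APAP 4. Dnajc12, a co-chaperone of amino acid hydroxylases, was at 10.6 and 6.43 CPM in control, 3.44 CPM in APAP 3 and 43.9 CPM in APAP 4. For these last 3 genes APAP 3 lay below both controls and APAP 4 above both. With 1 library on each side, the difference between APAP 3 and APAP 4 has no replicate check.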

How the data were processed

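RNA-seq counts per gene were deposited as 1 table of raw whole-number counts with 1 column per library. Per the submitters' processing notes STAR 2.5.4, Cufflinks, Cuffdiff 2.2.1 and build mm10 were used, without a stated role; the counting step, annotation, strand setting and treatment of reads that map to several places were not given in the sources used here. Among 23006 gene identifiers, 22329 (97.1%) matched GENCODE M21 on GRCm38, which gave symbols and positions.

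Counts of all 8 libraries were fitted with edgeR 4.0.16 in R 4.3.3 (filterByExpr, TMM, 4 group means, robust quasi-likelihood fit with legacy=FALSE), the contrast was APAP minus control, and p-values were adjusted by Benjamini-Hochberg over 16876 genes, with a threshold of 0.05. The standard error of a log2 fold change is its size divided by the square root of the F statistic. The code was tested on simulated data. Differences of single libraries from the control mean are on log2(CPM + 0.5), which understates changes of low genes, and the counts of genes 2-fold beyond the controls are counts by size with no test. Intervals and the limit of 3 counts for a count of 0 cover counting error only. The alternatives were DESeq2 (version 1.42.0), other scalings, filters, pseudocounts, folds and gene sets, the older edgeR fit, fewer libraries and leaving out each library.

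The members and the 46 gene lists (928 genes in the table, 906 tested) were chosen with earlier results of these data known. Genes named were the 15 called in each direction with the smallest p, at least 5 CPM in the higher group and no overlap, every called member of a list or otherwise up to 4 with the smallest p, the 8 genes furthest apart between APAP 3 and APAP 4 in each direction among those with at least 10 CPM in either, and members that make up a count. Not every gene that qualified is described, and some results are not reported here. Genes outside these choices (Sult2a8, Selenbp2, Wee1 and list members such as Atf3, Myc, Hyou1, Glul, Wnt2 and Ccnd1) were chosen after their values were seen. Figures were drawn with matplotlib 3.10.9.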

Additional observations from a re-analysis of the deposited data

How the results depend on the processing

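The number of genes edgeR called, 133 (56 higher, 77 lower), depended on which libraries gave the spread. It was 0 from the 4 compared libraries (2654 at an unadjusted p under 0.05) and 0 without the 2 SLIT2 libraries (3908), and leaving out 1 library at a time gave 0 to 5181: 0 without either SLIT2 library (4190 at an unadjusted p under 0.05 for each), 4 without either SLIT2+APAP library, 20 without control 1 (1 higher), 137 without control 2 (9 higher, 128 lower and 56 shared with the 133), 553 without APAP 3 and 5181 without APAP 4. When 1 library of a group is left out, the other is assumed to vary like the rest of the study. The older edgeR fit called 54, offsets for GC content 71, no count filter 205 and DESeq2 1836, of which 131 were shared. Scaling by library totals called 236 (145 higher, 91 lower), so that 61.4% were higher in place of 42.1%, and moved the median log2 difference of all genes by 0.02 in APAP 3 and 0.11 in APAP 4. DESeq2 size factors (137), at least 10 CPM in 2 libraries (123), no mitochondrially encoded genes (123) and protein-coding genes only (148) stayed within 1.5 times of 133.

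The 36 called genes named here kept their direction in all 679 results over these alternatives, and in 297 of them they did not pass. A change of direction was hardly possible, because the control and APAP libraries of every called gene did not overlap, so the kept direction adds no support. No paired analysis was possible because the control libraries carry the numbers 1 and 2 and the APAP libraries 3 and 4. The 201 genes higher in both APAP libraries became 310 with a pseudocount of 0.1 CPM, 106 with 2 CPM, 35 at 4-fold and 116 at 10 CPM or more; the 175 lower became 373, 85, 34 and 85. The 1060 genes higher in APAP 3 only became 237 at 4-fold and 442 at 10 CPM or more.

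Fold changes of genes not called that depended on 1 APAP library changed sign without it. Without APAP 3 the log2 fold change of Thrsp was -1.78, of Cdkn1a -1.59, of Idi1 0.01 and of Nr0b2 0.23. Without APAP 4 it was -1.32 for Dnajc12, -2.67 for Asap3, -2.36 for Cyp4a14, -0.42 for Elane, -0.77 for Prtn3, -0.55 for Hyou1, -1.52 for Pdia4 and 0.30 for Wnt2. At the other end of leaving out 1 library stood 4.40 for Thrsp, 5.01 for Cdkn1a, -3.50 for Idi1, -4.38 for Nr0b2, 2.37 for Dnajc12, 1.99 for Asap3, 1.57 for Cyp4a14, 2.56 for Elane, 4.07 for Prtn3 (which then passed), 1.65 for Hyou1, 1.25 for Pdia4 and -3.29 for Wnt2. List medians close to 0 changed sign with scaling for complement in both APAP libraries, stellate cells in APAP 3, and gluconeogenesis, Kupffer cells, cytochromes, proteasome, T, B and NK cells and the urea cycle in APAP 4. The cause of these changes was not tested.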
